A study of Mus musculus with 5 samples.

Results

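Hemidesmosomes rivet the basal surface of an epithelial cell to the basement membrane. In their core, integrin α6β4 (Itga6 and Itgb4) binds laminin-332 outside the cell, the transmembrane collagen XVII (Col17a1) spans the membrane beside it, and the plakins plectin (Plec) and dystonin (Dst) tie the complex to keratin filaments within. In the trachea basal cells carry these anchors, and integrin α6 at the cell surface is widely used to sort such cells. The genes described here are 8 by name: Itga6, Itgb4, Col17a1, Dst and Plec, the tetraspanin gene Cd151, whose protein associates with laminin-binding integrins, and Lama3 and Lamb3, which encode the α3 and β3 chains of laminin-332. Every probe set that the array annotation assigned to a single one of these genes was taken, which gave 20 probe sets for 8 of the 18193 genes on the array with a probe set of their own.

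Expression was measured on Affymetrix mouse arrays, where a probe set is a group of short probes for a transcript, in tracheal epithelial cells of C57BL/6 mice of both sexes aged 8 to 12 weeks, and each sample was a separate pool of 10 to 15 mice. The 3 duct samples came from the upper part of the trachea: the surface epithelium was taken off with pronase and cells were sorted from the remaining tissue on a surface antigen, without ITGA6. The 2 basal samples came from the lower part, from surface epithelium freed with dispase and sorted on that antigen together with ITGA6. Enzyme, section and gate therefore changed with the cell type and cannot be told apart from it, and Itga6 is the gene of a protein that was selected for in basal samples only.

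All 20 probe sets passed the filter on dim signal, so no member was lost. Each array carried 27 probe sets for Bacillus transcripts, whose brightest value, 39.5 to 61.9 on the duct arrays and 59.7 and 86.5 on the basal arrays, stands here for background. Duct replicate 1 stood apart, with a median intensity of 92.3, against 149.1 and 149.4 on the other duct arrays and 152.8 and 146.5 on the basal arrays, and with the lowest of the 5 background values. Of the 20 probe sets, 18 exceeded the background on all 5 arrays, while a dim probe set of Lama3 and a dim one of Cd151 did so on 4. Epithelial identity of the samples was checked with Cdh1, Epcam, Krt8, Krt18 and Krt19, all above background on every array, with 0 of 5 past the test. Of 6 airway basal cell markers, all were above background on every array, and their summed intensity was 72064 to 82132 on duct arrays and 45518 and 47876 on basal arrays. That sum is carried by the keratins, and the markers did not all run one way. Krt14 and Krt17 passed the test as higher in duct cells, and Krt5 and Krt15 were higher on every duct array without passing. Ngfr, a neurotrophin receptor gene, measured 406, 754 and 466 in duct cells, against 1791 and 1820 in basal cells. It was lower on every duct array, at -1.76 on the log2 scale (adjusted p = 0.0786), and so was Trp63, at -0.33 (adjusted p = 0.499). These values are from the most intense probe set of each gene. The 3 tested probe sets of Ngfr ranged from -1.76 to -0.31, and those of Trp63 from -0.53 to -0.072. The part of these markers in the results below was not tested. Of 4 thyroid genes 0 were above background on every array, with summed intensities of 9154 to 20879 on duct arrays and 235 and 212 on basal arrays; Tg, at 8779, 16062 and 20119 in duct cells and 11.1 and 53.2 in basal cells, passed the test as higher (adjusted p = 0.00595). The part of the Tg signal in the results was not tested either. The name duct was taken from the labels and was not checked against duct markers.

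No hemidesmosome gene passed the test between duct and basal cells. With limma, 0 of 8 genes had an adjusted p under 0.05, against 0.973% of the 12536 genes tested, and 0 of 20 probe sets did, against 0.233% of 27022. At an unadjusted p under 0.05 there were 2 genes, Col17a1 and Dst, and 18.5% of all genes were past that mark. Every fold change sets duct over basal cells and was taken on log2(intensity + 16). Those of the 8 genes, each read from its most intense probe set, lay between -0.53 and 0.71 with a median of 0.15, while the median of all tested genes was -0.12. Scaling moved both medians: they were 0.055 and -0.045 with quantile normalization and 0.35 and 0.084 with median centring, and 5 of 8 genes were positive in each case. The smallest change, in either direction, of any gene past the test was 1.68. In 4 of 8 genes (Itga6, Col17a1, Lama3 and Dst) all duct arrays exceeded both basal arrays, which held for 16.5% of all genes, and in 1 (Itgb4) all were below them, which held for 22.6%. With 20 probe sets the counts were 7 above, against 14.9% of all probe sets, and 5 below, against 20.7%. Without duct replicate 1, the array that stood apart, 0 of the 8 genes were called either, among 39 genes called in all, and no gene changed sign. The log2 fold changes were then 0.59 for Col17a1, 0.84 for Lama3, 0.61 for Dst, 0.27 for Itga6, 0.017 for Lamb3, -0.13 for Cd151, -0.18 for Plec and -0.64 for Itgb4. In bulk RNA, a change in the share of a cell type and a change in RNA per cell cannot be told apart.

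**Figure D1:**
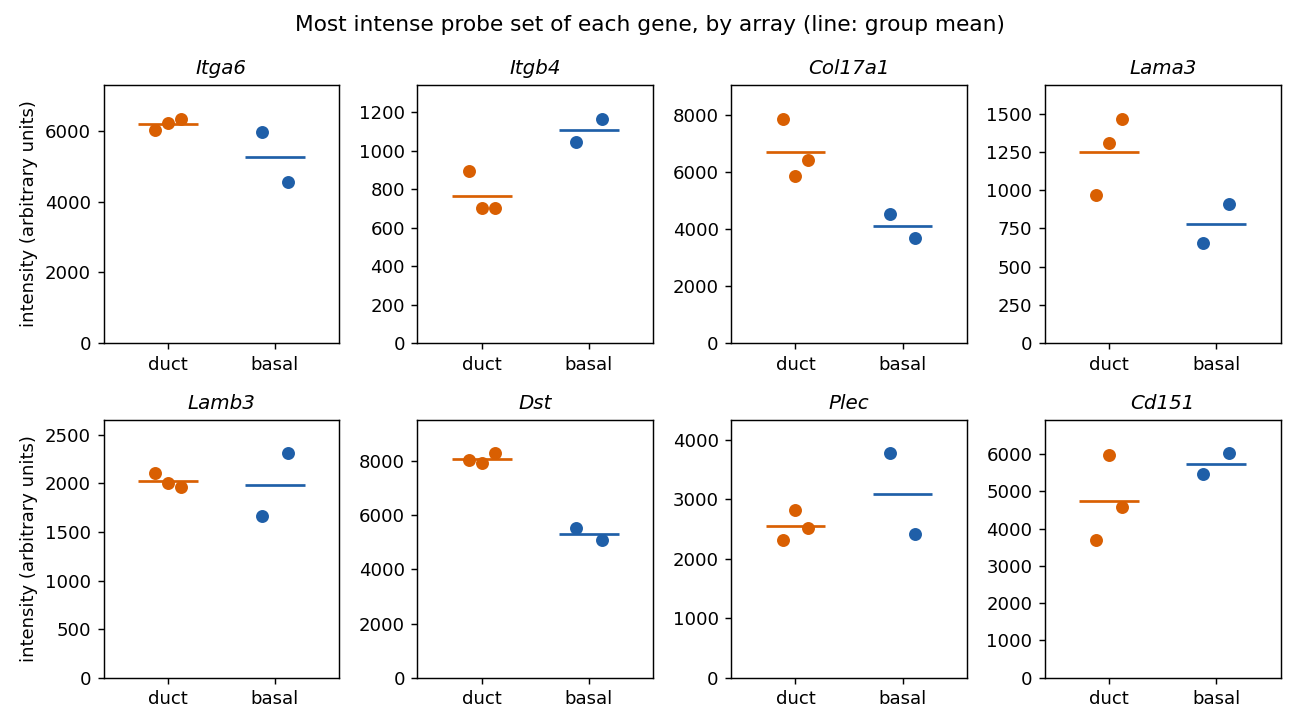
Intensity in arbitrary units of the most intense probe set of each of the 8 genes, by array, with the 3 duct arrays in orange and the 2 basal arrays in blue and a line at each group's mean. Each panel has its own scale from 0; Col17a1, Dst, Lama3 and Itga6 have all duct points above both basal points, Itgb4 has them below, and Lamb3, Plec and Cd151 overlap.

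The integrin chains had fold changes of opposite sign, and neither passed the test. Itga6, the laminin-binding α chain, measured 6011, 6217 and 6346 on the duct arrays, against 5954 and 4545 on the basal arrays. The groups did not overlap, but basal replicate 1 lay just under the lowest duct array. The means were 6191 ± 169 in duct cells (SD, n = 3) and 5250 ± 996 in basal cells (SD, n = 2), and the log2 fold change was 0.25 (SE 0.25, adjusted p = 0.628). Its 95% interval of -0.35 to 0.85 runs on the fold scale from 0.782 to 1.81, so these arrays do not settle whether transcript levels of the gated integrin are alike. Basal replicate 2 carried most of the difference: the log2 fold change was 0.056 without it and 0.44 without basal replicate 1. The second Itga6 probe set, from the same transcript record, measured 4894, 4998 and 5395 in duct cells and 3544 and 3529 in basal cells. It set the groups further apart, with 0.52 as its log2 fold change (SE 0.25, adjusted p = 0.397).

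Itgb4, which supplies the long cytoplasmic tail that recruits plectin, measured 896, 700.4 and 701 on duct arrays, against 1045 and 1168 on basal arrays. Every duct array lay below both basal arrays, with means of 766 ± 113 in duct cells (SD, n = 3) and 1106 ± 87.3 in basal cells (SD, n = 2). The log2 fold change was -0.53 (SE 0.25, adjusted p = 0.326), with an interval from -1.14 to 0.086. Since α6 pairs with β4 or with β1, the within-array difference of log2 values between Itga6 and Itgb4 was also set between groups. It was 2.72, 3.12 and 3.15 on duct arrays and 2.49 and 1.95 on basal arrays; only the change of this difference can be read, because the probe sets of different genes differ in brightness. The change of 0.78 had p = 0.1 in an exact two-sided permutation test over the 10 ways to split the arrays, which is the smallest p the design allows, and 0.15 after Benjamini-Hochberg adjustment over the 3 pairs compared.

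Collagen XVII had the largest fold change of the 8 genes. Col17a1 measured 7884, 5877 and 6416 on duct arrays, against 4526 and 3683 on basal arrays. No duct array fell below 5877 and no basal array rose above 4526. Means were 6726 ± 1039 in duct cells (SD, n = 3) and 4105 ± 596 in basal cells (SD, n = 2), and the log2 fold change of 0.71 (SE 0.26, adjusted p = 0.238) had an interval from 0.060 to 1.35. Its size was larger than that of 72.1% of tested genes. The fit with an intensity trend and robust variance called it (adjusted p = 0.0295) among 942 genes called in that fit, against 122 in the main one.

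The α3 chain of laminin-332 was brighter on every duct array, without passing the test, while its β3 partner overlapped between groups. Lama3 measured 969, 1310 and 1468 on duct arrays, against 654 and 906 on basal arrays. The lowest duct array, 969, stood just above the higher basal array, 906. The log2 fold change was 0.67 (SE 0.30, adjusted p = 0.311) with an interval from -0.079 to 1.41, and its means were 1249 ± 255 in duct cells (SD, n = 3) and 780 ± 179 in basal cells (SD, n = 2). A second Lama3 probe set was dim, with 130, 284 and 129 in duct cells and 121 and 75.1 in basal cells. The last value lies under that array's brightest Bacillus control, and its log2 fold change of 0.73 (adjusted p = 0.482) was 0.38 without duct replicate 2.

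Lamb3 was nearly level: it measured 2105, 2009 and 1965 on duct arrays and 1667 and 2310 on basal arrays. The basal arrays lay on both sides of all duct arrays. The log2 fold change was 0.045 (SE 0.26, adjusted p = 0.944; interval -0.59 to 0.68), and it was -0.19 without basal replicate 1. The within-array difference of Lama3 and Lamb3 was -1.11, -0.61 and -0.42 in duct cells and -1.33 and -1.33 in basal cells. The change between groups of 0.62 had p = 0.2 in the exact two-sided permutation test, and 0.2 after adjustment.

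Dystonin is a plakin made in several forms, among them the epithelial form of hemidesmosomes and longer forms in nerve and muscle, and its 4 probe sets did not run the same way. Its most intense probe set measured 8050, 7938 and 8285 on duct arrays, against 5526 and 5102 on basal arrays. Replicates lay close together in both groups, and the gap between groups exceeded the spread within each. The log2 fold change was 0.61 (SE 0.22, adjusted p = 0.236) with an interval from 0.054 to 1.16, and means were 8091 ± 177 in duct cells (SD, n = 3) and 5314 ± 299.6 in basal cells (SD, n = 2). The second most intense, which the annotation draws from the same transcript record, had 5512, 6341 and 6127 in duct cells and 4532 and 3054 in basal cells. It too was higher on every duct array, by 0.68 on the log2 scale (adjusted p = 0.355). The third, drawn from another record, was lower on every duct array, at 836, 898 and 774, against 1048 and 1187 on basal arrays. Its log2 fold change was -0.41 (SE 0.26, adjusted p = 0.503). The dimmest had 170, 332 and 200.4 in duct cells and 295 and 192 in basal cells, at -0.079 (adjusted p = 0.943), and its sign turned to positive with quantile normalization and with median centring. Averaging the 4 probe sets brought the fold change of the gene down to 0.20 (adjusted p = 0.722), while the fit with an intensity trend called Dst among genes (adjusted p = 0.0199) and its most intense probe set among probe sets (adjusted p = 0.0327).

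RefSeq on build GRCm38.p6 lists 2 starts for Dst, 148665 bases apart on the plus strand of chromosome 1, and 1 for Col17a1. These windows are shown since Dst and Col17a1 had the 2 lowest unadjusted p-values of the set and since the Dst probe sets ran in different directions; which start's transcripts each probe set reports was not tested. Each holds the 250 bases before and the 50 bases after a start, and is written 5′ to 3′ along the gene. Both strands were searched for the motifs TGANTCA, bound by AP-1, and TATAAA, the TATA box; capitals mark matches, and no motif overlapped another. A start window was given for 4 of the 8 genes, with 7 windows in all.
Dst at chr1:34011345-34011644, plus strand: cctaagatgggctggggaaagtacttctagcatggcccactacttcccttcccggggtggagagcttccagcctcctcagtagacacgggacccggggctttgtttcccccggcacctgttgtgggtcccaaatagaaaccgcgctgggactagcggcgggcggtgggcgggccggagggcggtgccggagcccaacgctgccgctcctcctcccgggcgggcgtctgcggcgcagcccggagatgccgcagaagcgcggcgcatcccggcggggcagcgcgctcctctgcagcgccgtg
Dst at chr1:34160010-34160309, plus strand: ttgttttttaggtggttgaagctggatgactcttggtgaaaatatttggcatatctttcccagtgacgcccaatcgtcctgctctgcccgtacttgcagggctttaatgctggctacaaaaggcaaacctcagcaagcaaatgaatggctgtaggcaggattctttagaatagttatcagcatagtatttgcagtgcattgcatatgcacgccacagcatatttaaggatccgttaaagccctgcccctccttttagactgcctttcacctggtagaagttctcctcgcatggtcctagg
Col17a1 at chr19:47691993-47692292, minus strand: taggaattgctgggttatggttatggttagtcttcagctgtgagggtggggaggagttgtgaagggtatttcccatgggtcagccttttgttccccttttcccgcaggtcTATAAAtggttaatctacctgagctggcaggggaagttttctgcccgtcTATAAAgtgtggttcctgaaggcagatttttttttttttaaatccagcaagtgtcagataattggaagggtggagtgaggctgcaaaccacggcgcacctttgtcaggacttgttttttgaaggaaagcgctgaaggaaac
The Dst windows differ in composition: G and C made up 70.3% of the upstream window and 46.0% of the downstream one. In the Col17a1 window G and C made up 46.3%. Neither Dst window held a match to either motif, and the Col17a1 window held 2 matches to TATAAA, beginning 140 and 91 bases before the listed start. Of 32851 windows of this length, 13.6% held TATAAA and 7.81% held TGANTCA. These matches describe letters only.

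Plectin, the linker from β4 to keratin, was measured by 3 probe sets with overlapping groups in each. The most intense measured 2309, 2817 and 2520 on duct arrays, against 3769 and 2416 on basal arrays. Basal replicate 1 stood above all other arrays, and basal replicate 2 lay within the duct range. The log2 fold change was -0.25 (SE 0.29, adjusted p = 0.692; interval -0.96 to 0.47), and it was 0.072 without basal replicate 1 and -0.57 without basal replicate 2. The second was at -0.12 and the third at -0.17, and both turned positive with median centring. Set against the other plakin within each array, the difference of Dst and Plec was 1.79, 1.49 and 1.71 on duct arrays and 0.55 and 1.07 on basal arrays. Its change of 0.85 between groups had p = 0.1 in the exact two-sided permutation test (0.15 after adjustment), and was 0.38 with the mean of all probe sets of each gene. With 1 array left out it ran from 0.59 to 1.11.

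The tetraspanin gene Cd151 had 6 probe sets, and all 6 fold changes were negative. In the most intense the values were 3703, 5972 and 4584 in duct cells, against 5469 and 6020 in basal cells. Duct replicate 2 lay between the basal arrays, so the groups overlapped. The log2 fold change was -0.30 (SE 0.29, adjusted p = 0.625) with an interval from -1.01 to 0.42, and it was -0.13 without duct replicate 1. The second most intense gave 3170, 4398 and 3426 in duct cells and 4981 and 5418 in basal cells. Here every duct array was below both basal arrays, at -0.52 (SE 0.28, adjusted p = 0.449). Also without overlap were the third, at -0.46 (adjusted p = 0.459), and the fourth, at -0.38 (adjusted p = 0.539). In the fifth the groups overlapped, at -0.36 (adjusted p = 0.639), as they did in the dimmest, at -0.41 (adjusted p = 0.587). The suffix x marks probe sets whose probes may also match other transcripts; with such probe sets left out Cd151 was at -0.38 (adjusted p = 0.481). These 6 probe sets share a target and are not independent of each other.

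**Figure D2:**
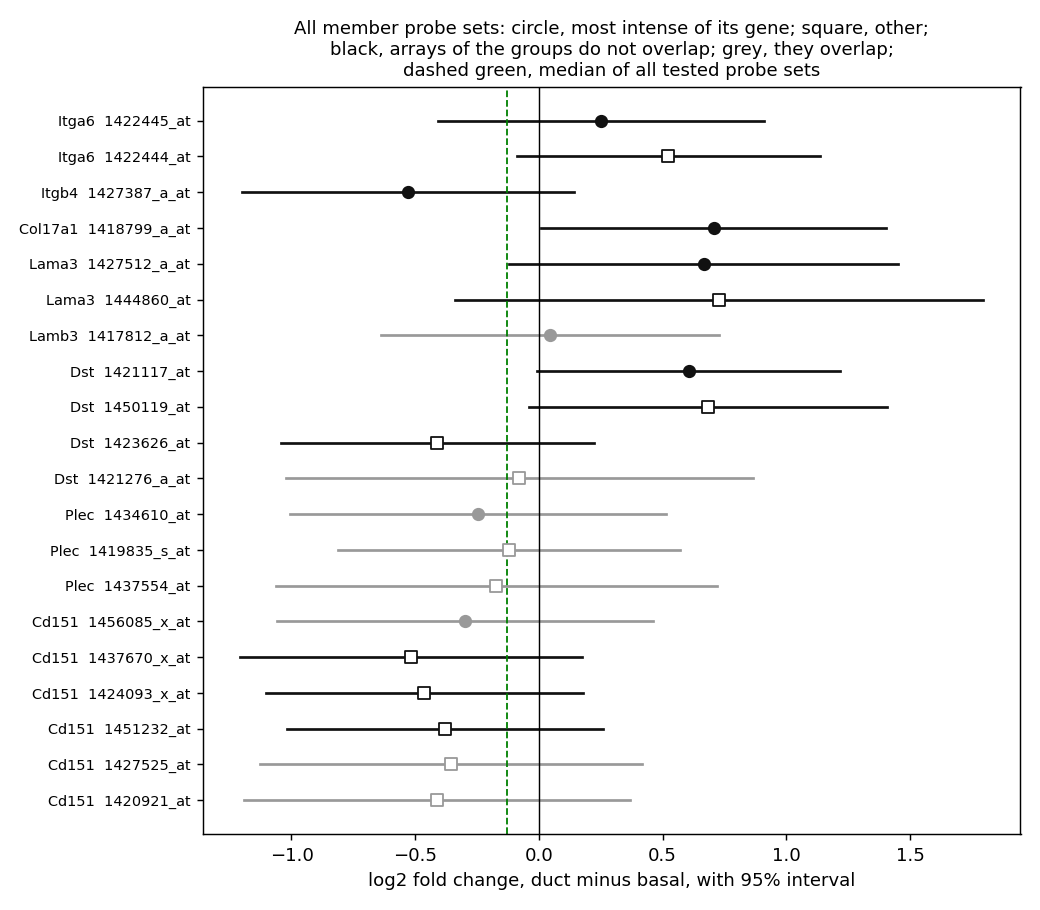
Log2 fold change, duct minus basal, of all 20 probe sets with 95% intervals from limma; circles are the most intense probe set of a gene, squares the others, black where the arrays of the groups do not overlap and grey where they do. Only the interval of Col17a1 lies wholly on one side of 0 in this fit over 27022 probe sets, and Dst has probe sets on both sides of 0.

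Related genes were read from 6 lists. Among the other laminin chains, 0 of 6 tested genes passed, with a median of -0.19 that turned to 0.018 with median centring; Lama5 measured 1432 ± 229.5 in duct cells and 1572 ± 109 in basal cells (-0.14, adjusted p = 0.797), and Lamc1 1202 ± 169 in duct cells and 1104 ± 407 in basal cells (0.16, adjusted p = 0.819; SD, n = 3 duct and 2 basal arrays here and below). The sign of Lama5 was positive with median centring. Among other basement membrane genes 0 of 7 tested passed. All 7 fold changes were negative, with a median of -0.66 against -0.12 for all genes. With quantile normalization and with median centring 6 of 7 were negative. Col4a2 and Nid2 of this list were too dim to be tested, and both had a higher mean in duct cells. Col4a2 had 24.9, 199 and 184 in duct cells, against 45.4 and 68.8 in basal cells. Nid2 had 34.4, 109 and 62.9 in duct cells, against 81.9 and 7.45 in basal cells. Agrn, a heparan sulfate proteoglycan gene, measured 2435, 3190 and 2492 in duct cells, against 4012 and 4600 in basal cells (-0.67, adjusted p = 0.242). Col4a6, a collagen IV chain gene, was at -0.70 (adjusted p = 0.559), and at -0.23 without duct replicate 2 and -1.20 without duct replicate 3. Col7a1, which encodes the anchoring fibrils below hemidesmosomes and was picked with its values already known, had 302, 675 and 557 in duct cells, against 747 and 802 in basal cells. Col7a1 was at -0.66 (adjusted p = 0.416), and at -0.33 without duct replicate 1. Col4a5, also picked with its values known, had the lowest fold change of the list, at -1.35 (adjusted p = 0.105). All duct arrays lay below both basal arrays in 3 of the 7 genes, Agrn, Col7a1 and Col4a5, which held for 22.6% of all genes.

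Other laminin receptors passed in 0 of 6 tested genes, with a median of -0.13 that was 0.079 with median centring. The syndecan gene Sdc4 measured 18235 ± 1337 in duct cells and 14173 ± 464 in basal cells (0.36, adjusted p = 0.452). Sdc1, another syndecan gene, measured 14310 ± 93.3 in duct cells and 15671 ± 1512 in basal cells (-0.13, adjusted p = 0.799), a sign that turned with median centring. Of the other tetraspanins 0 of 6 passed, with a median of 0.062 that was 0.0075 with quantile normalization and 0.27 with median centring. Cd81 and Cd9 measured 7966 ± 335 and 7296 ± 538 in duct cells, against 6067 ± 737 and 6259 ± 75.4 in basal cells. Both were higher on all duct arrays, at 0.40 and 0.22 (adjusted p = 0.417 and 0.653). Of the 6 tested tetraspanins 3 had a positive and 3 a negative fold change, so a negative sign was not particular to Cd151. All duct arrays lay above both basal arrays in 3, against 16.5% of all genes, and below them in 2, against 22.6%.

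Only in the list of other plakins and keratin partners did a gene pass. Krt14, a partner in the keratin pair to which hemidesmosomes attach in basal cells, measured 18615, 18421 and 22413 in duct cells, against 1327 and 1533 in basal cells. Each duct array was far above both basal arrays, and the log2 fold change was 3.78 (SE 0.24, adjusted p = 0.00595). Its probe sets ranged from 1.28 to 4.08. The call was lost without duct replicate 3 (adjusted p = 0.0720), without basal replicate 1 (0.0815) and without basal replicate 2 (0.0666). All 7 genes of this list, each read from its most intense probe set, had a positive fold change, with a median of 0.60, and 1 of 7 passed. All were positive with either other scaling too. The 3 tested probe sets of Macf1, another plakin gene, ran in both directions, from -0.78 to 1.06. Krt5, the partner of Krt14, measured 18134 ± 1532 in duct cells and 11976 ± 507 in basal cells (0.60, adjusted p = 0.256). Dsp, the desmosomal plakin, measured 23279 ± 3552 in duct cells and 15512 ± 611 in basal cells (0.58, adjusted p = 0.296). Of 12 tested genes of laminin or collagen processing and of regulation 0 passed, with a median of -0.17 that was 0.033 with median centring. Their fold changes ran from -0.71 to 2.14. The highest was that of Plau (adjusted p = 0.0786), picked with its values known. It measured 3016, 1667 and 1987 in duct cells, against 658 and 342 in basal cells. Trp63, a transcription factor of basal cells, was at -0.33 (adjusted p = 0.499), and Met, a growth factor receptor gene, at -0.20 (adjusted p = 0.694), a sign that turned with median centring.

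**Figure D3:**
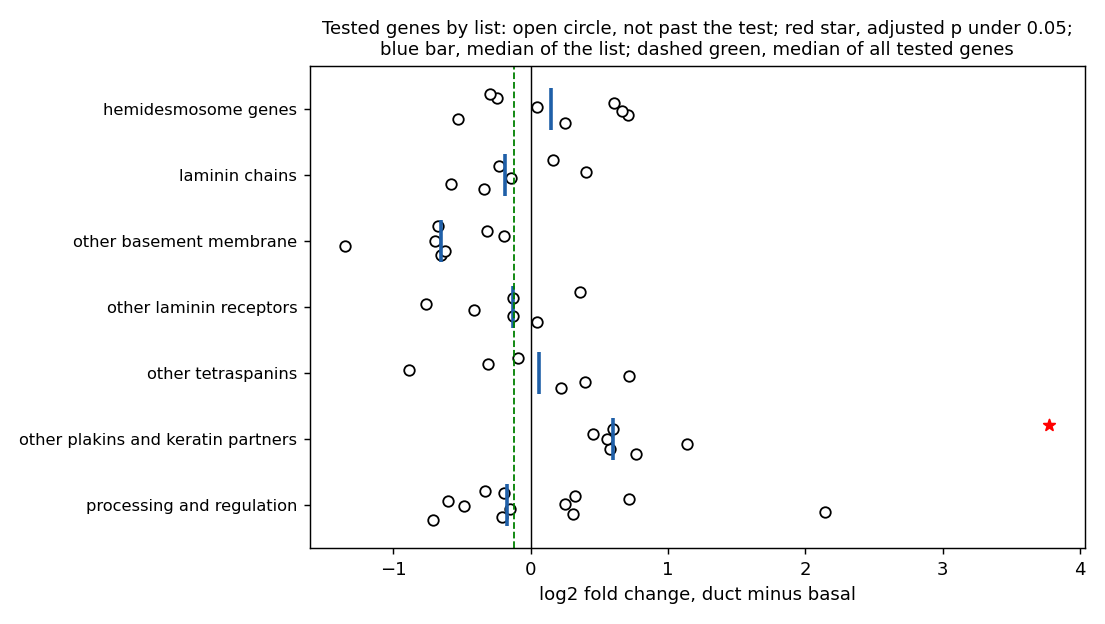
Log2 fold change, duct minus basal, of each tested gene in the 8 hemidesmosome genes and in 6 related lists; blue bars are list medians, the dashed line is the median of all tested genes, -0.12, and the star is the gene past the test, Krt14. Each gene is read from its most intense probe set, and genes too dim to be tested, Col4a2 and Nid2 among them, are not drawn. The hemidesmosome genes spread over both sides of 0. The 7 tested other basement membrane genes lie below it (6 of 7 with either other scaling) and the other plakins and keratin partners above it.

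The genes most like Itga6 over the 5 arrays, by Euclidean distance between log2 values centred on each gene's mean, were Atp5e, Swi5, Plagl1, Cox6c and Rps14. Their distances were 0.0880 to 0.123, against a median of 1.01 over the tested genes that were ranked. Genes with clone, RIKEN or predicted-gene names were left out of the ranking and of its medians. Itga6 had an SD of 0.20 (log2) over the arrays, and it and these genes had their lowest value on basal replicate 2. For Col17a1 they were Arid5a, H2bc22, Cd109, Phlda1 and Sec23a, at 0.106 to 0.145, against a median of 1.30. Each had its highest value on duct replicate 1 and its lowest on basal replicate 2, as did Col17a1. The distances rest on 5 arrays. These genes were picked as the nearest, so their small distances and shared highest or lowest arrays follow from the choice.

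Several tissues of the trachea other than surface epithelium express α6β4, dystonin or plectin, Schwann cells and muscle among them. Of 4 measured Schwann cell genes 3 were above background on all arrays and 0 passed, and the summed intensity was 3257 to 3870 on duct arrays and 4906 and 5677 on basal arrays, most of it from Pmp22. Of 6 skeletal muscle genes 1 was above background on all arrays; they summed to 284 to 373 on duct arrays and 356 and 694 on basal arrays, with Acta1 and Tnnt3 at background on all 5. Of 6 genes of smooth muscle and myoepithelium 2 were; they summed to 730.4 to 1786 on duct arrays and 1225 and 1446 on basal arrays, with Des at background on every array. Beneath these sums Acta2 had 316, 429 and 459 on duct arrays and 119 and 142 on basal arrays (1.5, adjusted p = 0.0751). Myh11 had 13.6, 80.7 and 30.7 on duct arrays and 357 and 289 on basal arrays (-2.72, adjusted p = 0.0806). In these probe sets of Acta2 and Myh11 the groups did not overlap, and the fold changes ran in opposite directions. The other tested Myh11 probe set was at -0.28. Of 6 endothelial genes 0 were above background on all arrays; they summed to 110 to 345 on duct arrays and 395 and 522 on basal arrays, with Kdr and Tek at background throughout. Of 6 fibroblast genes 3 were, with sums of 1804 to 4247 on duct arrays and 3791 and 4714 on basal arrays. Of 6 leukocyte genes 3 were, with sums of 1018 to 2022 on duct arrays and 471 and 1458 on basal arrays and Coro1a at background throughout. Of 5 chondrocyte genes 3 were, with sums of 402 to 1122 on duct arrays and 588 and 682 on basal arrays. Of 5 ciliated cell genes 3 were, with sums of 452 to 1085 on duct arrays and 787 and 2311 on basal arrays. All 4 club cell genes were, with sums of 72391 to 88514 on duct arrays and 80466 and 123574 on basal arrays. Basal replicates 1 and 2 differed in Scgb1a1 (9934 and 32690) and Scgb3a1 (7615 and 28609). They were close in Scgb3a2 (32282 and 32688) and Cyp2f2 (30636 and 29586). The part of these levels in the results above was not tested.

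**Figure D4:**
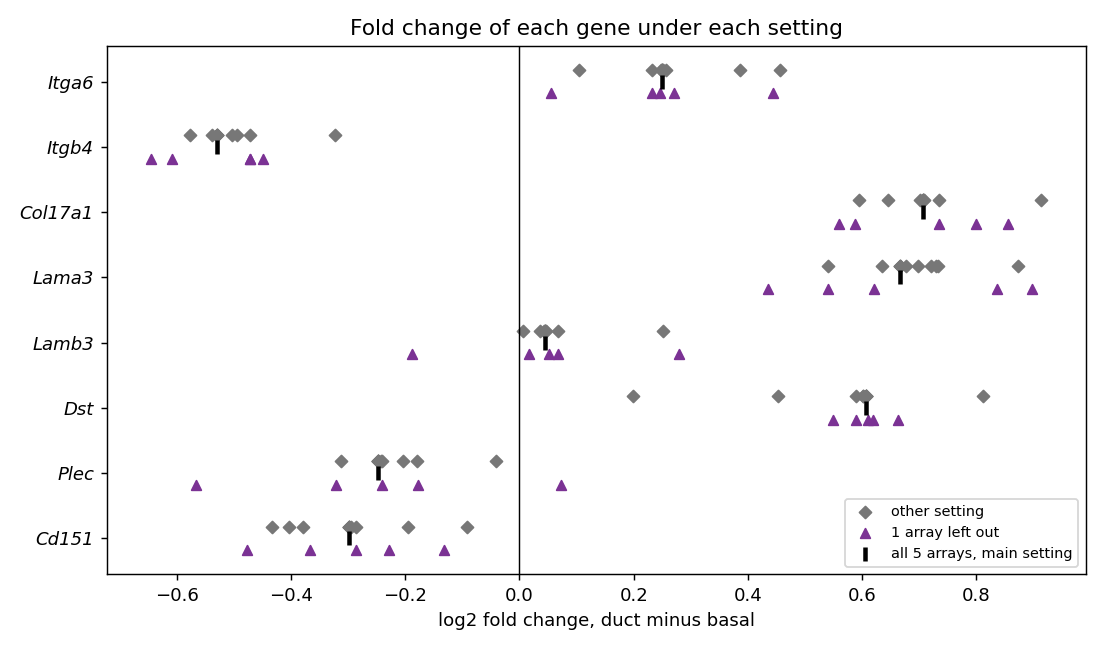
Log2 fold change, duct minus basal, of each of the 8 genes with all 5 arrays in the main setting (bar), under other settings (grey diamonds) and with 1 array left out (purple triangles). Itga6, Itgb4, Col17a1, Lama3, Dst and Cd151 kept their sign in every setting run, and Lamb3 and Plec changed sign without basal replicate 1.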

How the data were processed

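Arrays were read as the authors' deposited linear intensities; they were not brought to a common distribution, since array medians differ, and the software and background correction were not given in the sources used here. Of 45101 probe sets, 64 controls entered no test. Names came from the platform annotation, and a probe set counted as a gene's only where it listed 1 symbol (34945 did). Tests used log2(intensity + 16), with the lowest 40% of probe sets by mean left out, and limma 3.58.1 in R 4.3.3 (lmFit and eBayes, 2-sided) on all 5 arrays without covariates. The most intense probe set stood for a gene, and every probe set was tested in a second fit. P-values were adjusted by Benjamini-Hochberg over 12536 genes or 27022 probe sets, at a threshold of 0.05. The 16 added before taking logarithms understates changes of dim probe sets, and levels of different probe sets were not compared. Replicates are separate pools of mice.

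The 8 genes, the related and marker lists, the 3 gene pairs and the tests were chosen with earlier results of these data known. Values are given for the 8 genes, for related genes past the test and for the 2 most intense of each related list. Col7a1, Col4a5, Plau, Col4a2, Nid2 and the probe sets of Macf1 were added with their values known. One further sort antigen is not reported here. Alternatives were quantile normalization, median centring, other pseudocounts and filters, weights per array, a trend of variance with intensity (robust), replicate number as block, omission of each array, the mean of probe sets, and exclusion of x, s and a probe sets. The fit was checked on simulated data with independent noise. These held no shift of a whole array, such as the lower median of duct replicate 1. The number of columns of other samples was 0. The number of arrays limits the precision.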

Additional observations from a re-analysis of the deposited data

How the results depend on the processing

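Of the 8 genes 0 were called in the main fit and in all alternatives but the intensity trend with robust fit, which called 2 genes and 2 probe sets (Col17a1 and Dst). The count over all genes, 122, was 338 with median centring, 307 with a pseudocount of 64, 36 with no filter, 408 with the filter at 60%, 191 with the mean of probe sets and 942 with the trend; that of probe sets, 63, was 101 with quantile normalization, 375, 182, 27 and 341 under the first 4 of these and 1215 with the trend. With 1 array left out these counts ran from 0 to 39 and from 0 to 24, and members called stayed at 0. A lone basal array takes its spread from the duct arrays. The replicate numbers give no pairing, since each pool was separate. Same-numbered arrays deviated from their group means with correlations of -0.083 and -0.037 across genes. The deviations of the 2 basal arrays mirror each other, so these correlations cannot decide on pairing. The fit with the number as a block had 1 residual degree of freedom. It called 0 genes and 0 probe sets (1608 and 2660 at an unadjusted p under 0.05), and put Krt14 at 3.68 (adjusted p = 0.191).

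Some small fold changes changed sign. With 1 array left out Lamb3 ran from -0.19 to 0.28, Plec from -0.57 to 0.072, its second probe set from -0.32 to 0.076 and the third from -0.53 to 0.19, the dimmest Dst probe set from -0.37 to 0.21 and Lamc1 from -0.22 to 0.54; apart from Lamc1, which turned without basal replicate 2, these turned positive (Lamb3 negative) without basal replicate 1. The dimmest Dst probe set was at 0.12 with quantile normalization, 0.13 with median centring, 0.083 with array weights and 0.11 without duct replicate 1. With median centring the second Plec probe set was at 0.086, the third at 0.033, Lama5 at 0.063, Sdc1 at 0.079 and Met at 0.0097. The dimmest Plec probe set was at 0.0084 without duct replicate 2, and Sdc1 was at 0.030 with x, s and a probe sets left out. That setting left no probe set of Itgb4, Col17a1 or Lamb3, and the filter at 60% left out the dim probe set of Lama3 and the dimmest of Cd151, which was also too dim without duct replicate 1. Quantile normalization and median centring put the median of all genes at -0.045 and 0.084, against -0.12. The causes were not tested.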

Other observations

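A further probe set was assigned to both Parp10 and Plec and so names neither. It measured 230, 258 and 163 on duct arrays and 189 and 220 on basal arrays, and the groups overlapped.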
